A study of Mus musculus with 4 samples.

Results

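Open chromatin at the genes of the AMPA and kainate glutamate receptors was compared between control and Hoxa5-deficient mouse embryos, in motor neurons of the cervical spinal cord. The genes were Gria1, Gria2, Gria3 and Gria4, which encode the AMPA receptor subunits, and Grik1, Grik2, Grik3, Grik4 and Grik5, which encode the kainate receptor subunits. Their regions were found by merging the peak intervals of all libraries where they overlapped by at least 1 bp. Each merged region was assigned by its midpoint to the protein-coding gene body holding it, or otherwise to the nearest body within 100 kb. This gave 357 receptor regions of 199576 regions in all, and of 165822 regions assigned to some gene; 283 of the 357 lay inside a receptor gene and 74 outside. No receptor region inside these bodies was lost to a shorter nested gene. On mm10 the AMPA genes lie at chr11:57011571-57330244 (Gria1), chr3:80681450-80804227 (Gria2), chrX:41400819-41678601 (Gria3) and chr9:4417893-4796234 (Gria4). The kainate genes lie at chr16:87895901-88290863 (Grik1), chr10:49093680-49790161 (Grik2), chr4:125490259-125714173 (Grik3), chr9:42518182-42945000 (Grik4) and chr7:25009849-25075694 (Grik5). Regions are placed inside or outside these bodies, and exons and introns were not told apart.

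The assay was ATAC-seq, which reads open chromatin from the insertions of Tn5 transposase. Motor neurons carrying the ChAT::GFP transgene, a reporter of choline acetyltransferase that marks cholinergic neurons, were sorted by fluorescence at embryonic day 12.5. There were 2 libraries from control embryos and 2 from Hoxa5-deficient littermates, called mutants here. All carry the reporter, and the labels name neither the Hoxa5 allele nor how many embryos or which sex each library holds. The submitters call the 2 libraries of a genotype biological replicates.

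AMPA and kainate receptors are ion channels opened by glutamate, and each is a tetramer of the subunits above. AMPA receptors carry most fast excitatory transmission in the spinal cord and drive the firing of motor neurons. The subunit from Gria2 is known for RNA editing that makes AMPA receptors nearly impermeable to calcium, a property much studied in motor neuron disease. Subunits from Grik1, Grik2 and Grik3 can form kainate channels by themselves, whereas those from Grik4 and Grik5 bind glutamate with high affinity and need one of the other group as partner. An accessible region may be a promoter, an enhancer or a silent element, and its presence is not a measure of transcription.

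The libraries differed in yield. The deposited lists held 165866 and 163016 peak summits in controls and 192771 and 206114 in mutants. Background tags per 10 kb, a stand-in for sequencing depth, came to 362 and 292 for the control lists against 343 and 404 for the mutant lists. Motor neuron markers (Chat, Slc18a3, Slc5a7, Mnx1, Isl1, Isl2 and Lhx3) had 45 and 46 regions in controls and 54 and 62 in mutants, and 6 of the 7 genes had a region within 1 kb of a gene end in every library. Markers of other cells also had regions. Neural progenitor markers had 99 and 87 regions in controls against 67 and 69 in mutants, and interneuron markers 145 and 128 against 111 and 122. For the other lists, in the same order, the numbers were 121 and 114 against 116 and 110 for astroglia, 33 and 26 against 30 and 41 for endothelium, 24 and 24 against 23 and 33 for sensory neurons, and 10 and 15 against 12 and 8 for microglia. The part of the cell mix in the receptor results was not tested.

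Promoter sequences were matched for 6 of the 9 genes, from RefSeq (GRCm38.p6, the coordinates of mm10); Gria1, Gria3 and Grik1 were not matched. The 250 bases before the start site are printed for 5 genes, 4 whose window lay wholly or mostly in a peak in every library and Grik5, whose window lay almost outside the peaks. Capitals mark matches on either strand to 3 motifs. These are the core of the RE1 element bound by the repressor REST, here read as CTGTCCGCGGTGCT with any base allowed at the middle 2 positions; GGGCGG, the GC box of Sp1 factors; and CCAAT, the box bound by NF-Y.
Gria2, chr3:80802836-80803085, minus strand: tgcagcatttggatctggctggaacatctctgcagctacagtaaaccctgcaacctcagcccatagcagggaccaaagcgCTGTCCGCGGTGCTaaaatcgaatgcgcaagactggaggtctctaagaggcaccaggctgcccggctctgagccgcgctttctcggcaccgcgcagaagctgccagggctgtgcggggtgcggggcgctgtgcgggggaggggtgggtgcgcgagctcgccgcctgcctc
Gria4, chr9:4796235-4796484, minus strand: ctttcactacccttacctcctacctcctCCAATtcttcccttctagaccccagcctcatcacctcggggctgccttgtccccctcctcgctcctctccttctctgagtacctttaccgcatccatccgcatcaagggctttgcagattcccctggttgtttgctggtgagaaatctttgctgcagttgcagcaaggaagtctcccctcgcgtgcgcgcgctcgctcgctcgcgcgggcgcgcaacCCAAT
Grik3, chr4:125490446-125490695, plus strand: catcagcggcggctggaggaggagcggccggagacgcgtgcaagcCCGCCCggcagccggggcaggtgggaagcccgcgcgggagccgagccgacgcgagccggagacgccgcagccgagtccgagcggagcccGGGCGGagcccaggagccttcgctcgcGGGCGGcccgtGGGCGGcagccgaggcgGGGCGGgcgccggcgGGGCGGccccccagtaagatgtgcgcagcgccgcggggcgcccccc
Grik4, chr9:42944372-42944621, minus strand: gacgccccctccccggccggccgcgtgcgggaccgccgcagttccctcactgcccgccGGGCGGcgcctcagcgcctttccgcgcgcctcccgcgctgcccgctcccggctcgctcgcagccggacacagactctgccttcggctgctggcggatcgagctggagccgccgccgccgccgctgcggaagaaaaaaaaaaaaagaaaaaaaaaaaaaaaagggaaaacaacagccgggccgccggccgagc
Grik5, chr7:25072370-25072619, minus strand: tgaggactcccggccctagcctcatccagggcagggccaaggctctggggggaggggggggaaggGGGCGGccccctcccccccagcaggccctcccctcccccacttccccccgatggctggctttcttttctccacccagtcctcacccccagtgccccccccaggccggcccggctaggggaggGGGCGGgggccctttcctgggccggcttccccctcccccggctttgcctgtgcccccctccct

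The RE1 letters began 170 bases before the Gria2 start, and 15 of 32851 promoter windows in the table (0.0457%) held them. This motif was chosen after the Gria2 sequence had been read. GC boxes numbered 6 at Grik3, 2 at Grik5 and 1 at Grik4, and 32.7% of all windows held at least 1. Gria4 had 2 CCAAT boxes, the nearer beginning 5 bases before the start, a motif that 33.8% of windows held. Also searched, on both strands, were the Pbx-Hox motif TGATNNAT (in 7.68% of all windows), the homeodomain core TAATTA (4.84%), the NRF1 motif (0.782%), the cyclic AMP element TGACGTCA (1.55%) and TATAAA (12.4%). None of these 5 was found in the 6 receptor windows. CpG dinucleotides numbered from 8 at Grik5 to 42 at Grik3, against a median of 6 over all windows. At Gria2, Grik2, Grik3 and Grik4 all 250 bases lay in a peak in each library; at Gria4 it was 250 in 3 libraries and 207 in mutant library 2. At Grik5 it was 1 and 0 bases in controls and 6 and 7 in mutants, from a region at chr7:25072613-25072986 that was called in both mutants and control library 1.

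Every receptor gene had at least 1 region within 1 kb of a gene end, the start or the other end, that was present in all 4 libraries. None of these 12 end regions passed the rank test between genotypes. Over all shared regions 4.05% passed, so 12 regions are too few to show a lack of calls at gene ends. To compare strength, regions found in all 4 libraries (65789, of which 120 belong to receptor genes) were ranked by their peak's −log10 p. The rank is given as a percentile, in which 100 is the strongest of these shared regions. The promoter of Grik4 ranked at 91.3 and 93.3 in the control pair and 91.7 and 92.5 in the mutant pair. That of Grik2, the most widely studied kainate subunit, ranked at 90.1 and 88.7 in controls against 89.0 and 89.8 in mutants. The genotypes overlapped at both of these kainate promoters. Gria4 ranked at 86.3 and 89.1 in controls against 93.1 and 92.0 in mutants. Both mutants were thus higher there, as at 29.1% of all shared regions. The limma adjusted p for Gria4 was 0.245.

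The Gria2 promoter ranked at 81.2 and 81.0 in controls against 77.9 and 86.0 in mutants, and the Grik3 end region at 69.7 and 72.1 in controls against 65.0 and 75.1 in mutants. At both, the 2 mutants fell on either side of the controls. The strongest shared region of Grik3 was not this one but lay inside its body, at chr4:125544772-125545977. It ranked at 91.1 and 92.8 in controls against 92.9 and 92.0 in mutants. The end region of Grik1 ranked at 69.8 and 60.5 in controls against 69.6 and 68.7 in mutants. The leading end region of Grik5 lay inside its lower-coordinate end, 61.9 kb past the start site, and is not its promoter. It ranked at 68.6 and 63.8 in controls against 57.7 and 63.5 in mutants. Gria1 and the X-linked Gria3 were among the lowest. Gria1 ranked at 56.0 and 54.9 in controls against 62.0 and 67.5 in mutants, and Gria3 at 46.7 and 45.5 in controls against 57.1 and 51.6 in mutants. Both mutants were above both controls at these 2 AMPA genes, as at 29.1% of all shared regions. The limma adjusted p was 0.296 for Gria1 and 0.355 for Gria3. Over all 12 end regions the limma adjusted p ran from 0.0599 to 0.992. The lowest value belonged to a region just beyond the lower-coordinate end of Grik5 (chr7:25009074-25009558), which ranked at 6.67 and 2.91 in controls against 49.4 and 31.2 in mutants.

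**Figure D1:**
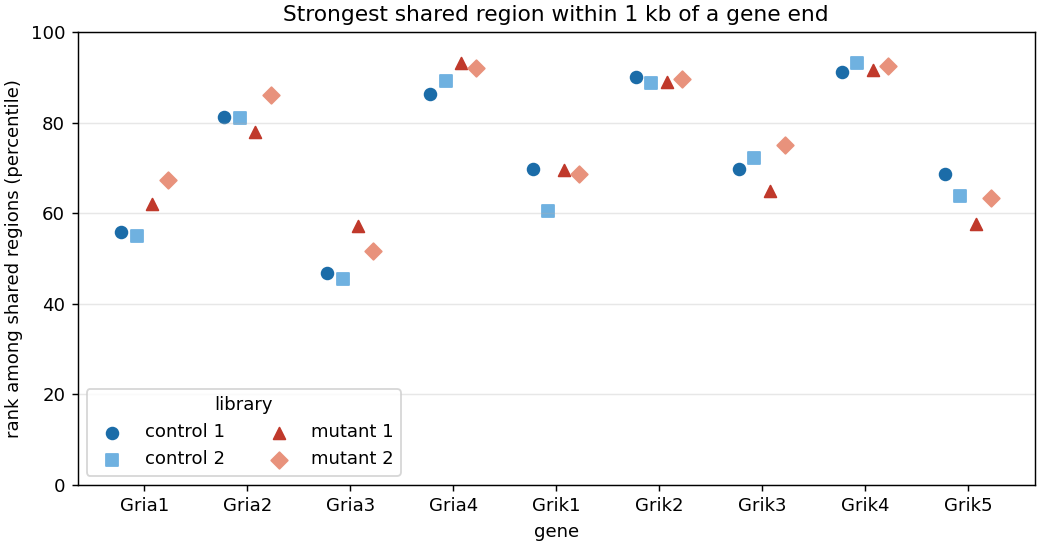
Rank of the strongest shared region within 1 kb of an end of each gene (vertical axis, percentile among the 65789 regions found in all 4 libraries, 100 strongest), with 1 point per library and blue for controls, red for mutants. Grik4, Grik2 and Gria4 lie highest, and Gria3 lowest, from 45.5 to 57.1. The Grik5 region lies 61.9 kb past the start site and is not a promoter.

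Receptor genes carried more regions in mutants than in controls. Control libraries held 174 and 185 receptor regions, and mutant libraries 235 and 271. The means were 179.5 ± 7.78 in controls and 253 ± 25.5 in mutants (SD, n = 2 each), a ratio of 1.41, where all assigned regions had a ratio of 1.14. As a share of each library's regions, receptor regions made up 0.159% and 0.173% in controls against 0.191% and 0.202% in mutants. The 2 genotypes did not overlap in either measure. An exact permutation test over the 4 libraries, two-sided, gave p = 0.333 for both, the smallest it can give. With each list cut to the same 163016 strongest summits the difference was smaller, with 171 and 185 receptor regions in controls and 198 and 221 in mutants. Related gene lists, described below, also held more regions in both mutants than in both controls. NMDA, delta and metabotropic receptor genes had 248 and 265 in controls against 369 and 366 in mutants. GABA-A and glycine receptor genes had 122 and 115 against 158 and 181, and the auxiliary list had 242 and 241 against 283 and 343.

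The widest difference in proportion was at Grik1, with 13 and 17 regions in controls and 29 and 38 in mutants (ratio 2.23). Gria1, a main subunit of AMPA receptors, had 19 regions in each control and 28 and 31 in the mutants (1.55). Grik3 had 45 and 54 against 64 and 73 (1.38), and Grik4 had 51 and 50 against 60 and 69 (1.28). The smaller sets kept the same order. Gria3 had 9 in each control against 11 and 14, Gria4 had 7 and 8 against 9 and 11, and Grik2 had 13 and 14 against 16 and 17. Gria2 (7 and 6 against 7 and 8) and Grik5 (10 and 8 against 11 and 10) overlapped between genotypes. Thus 7 of the 9 genes had more regions in both mutants than in both controls, as had 37.6% of the 4764 genes with 10 or more regions.

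Relative to length, kainate genes held both the most and among the fewest regions. Inside its 224 kb body Grik3 had 11.6 and 13.4 regions per 100 kb in controls, against 17.9 and 18.8 in mutants. Grik4, over 427 kb, had 11.7 and 11.2 in controls against 13.6 and 15.5 in mutants, and the short Grik5, over 65.8 kb, had 10.6 and 7.59 in controls against 12.1 and 10.6 in mutants. At the other end, Grik2, the longest body at 696 kb, had 1.72 and 1.87 regions per 100 kb in controls, against 2.01 and 2.15 in mutants, and Gria4 had 1.32 and 1.59 in controls against 1.85 and 2.38 in mutants. Gria1 had 3.77 and 4.39 per 100 kb in controls, against 6.90 and 8.16 in mutants. The highest density was thus found at Grik3 and Grik4, with values that overlap between the 2 genes in controls.

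**Figure D2:**
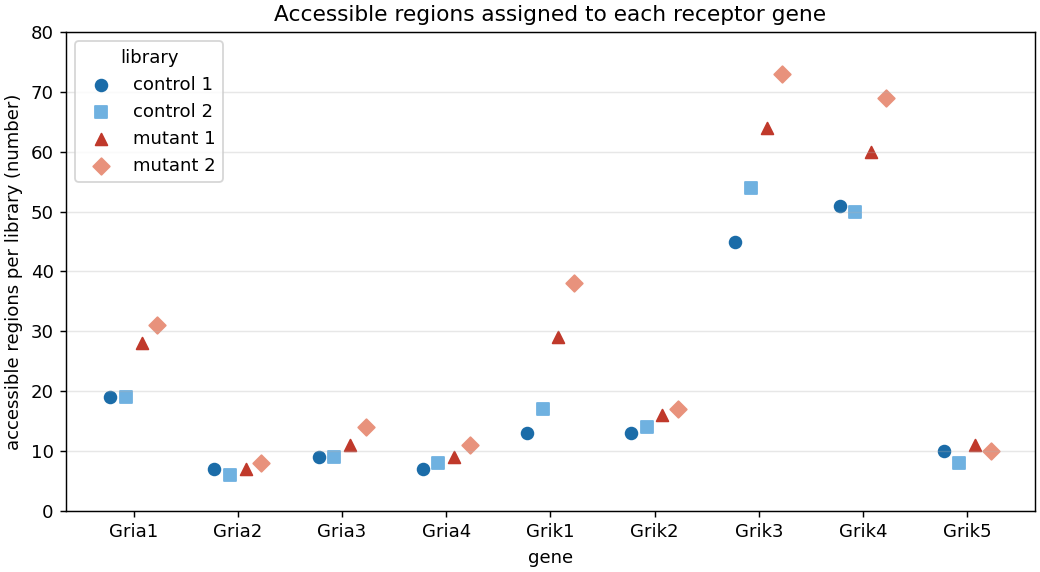
Number of accessible regions assigned to each receptor gene (vertical axis), with 1 point per library, blue for the 2 controls and red for the 2 mutants. Both mutants lie above both controls at every gene other than Gria2 and Grik5, and the widest gap in proportion is at Grik1, from 13 and 17 to 29 and 38.

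Of the 357 receptor regions 120 (33.6%) were found in all libraries, against 34.7% of all assigned regions and 30.4% of those of genes of 50 kb or more. Regions present in both mutants and neither control (mutant-only) numbered 46 at the receptor genes, or 12.9% of the 357. Regions present in both controls and neither mutant (control-only) numbered 9, or 2.52%. Over all assigned regions the shares were 9.16% and 3.5%, and over those of genes of 50 kb or more they were 10.8% and 3.53%. With equal numbers of summits the receptor shares were 11.2% and 3.62%, against 6.76% and 5.73% of all assigned regions. A further 33 receptor regions were found in both mutants and 1 control, 7 in both controls and 1 mutant, 13 in 1 library of each genotype, and 129 in a single library. The AMPA genes had 16 mutant-only and 1 control-only region among 89, and the kainate genes 30 and 8 among 268. Each of the 9 genes had more mutant-only than control-only regions. Over all assigned regions mutant-only ones also outnumbered control-only ones, 15186 to 5809, and the share of all genes with such an excess was not counted. Gria1, Gria2, Gria4, Grik1 and Grik5 had no control-only region. They hold from 12 to 47 regions each, so a share of 3.5% would give few or none.

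Of the 46 mutant-only regions 38 (82.6%) lay inside a gene, against 79.3% of all 357 receptor regions. Of these 46, 1 lay within 1 kb of a gene end, at Gria1 (chr11:57012482-57012856). Within each library's own list of regions, the weaker of a region's 2 percentiles had a median of 26.4 for the receptor mutant-only regions, against 25.1 for all assigned mutant-only regions. The strongest lay inside Grik4 at chr9:42580727-42581285, 363 kb past the start site. It ranked at percentiles of 80.9 and 85.3 in the mutant lists, with 62 and 114 tags at its summit, and had no peak in either control. Next came a region 68.9 kb outside Gria1 (chr11:56942227-56943194) at 78.4 and 83.3, and one inside Gria4 (chr9:4555167-4555847) at 69.0 and 74.3. At Grik3 the strongest were neighbours, chr4:125593148-125593459 at 66.0 and 67.7 and chr4:125593625-125594033 at 58.0 and 65.7. Grik1 had regions inside its body at chr16:88155147-88155896 (72.6 and 64.7) and at chr16:88280360-88281002 (57.1 and 71.9).

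The other genes had weaker mutant-only regions. The leading one lay 65.0 kb outside Gria2 (chr3:80616212-80616773) at percentiles of 53.9 and 68.7. Gria3 had one at chrX:41518986-41519441 (48.1 and 58.6), and Grik2 had one at chr10:49150394-49150799 (33.6 and 28.3). The single mutant-only region of Grik5 was chr7:25073105-25073319, upstream of the start site printed above, with 108 and 162 summit tags but percentiles of 35.8 and 47.3.

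Control-only regions were at Grik4 with 5, Grik3 with 2, and Grik2 and Gria3 with 1 each. The strongest, inside Grik4 at chr9:42788530-42788791, ranked at percentiles of 69.4 and 77.8 in the control lists, with 46 and 55 summit tags. One 4.50 kb outside the lower-coordinate end of Grik3, on the upstream side of the gene (chr4:125485383-125486125), ranked at 49.8 and 48.7. Those of Gria3 (chrX:41616502-41616709) and Grik2 (chr10:49441417-49441638) ranked at 31.4 and 33.2 and at 2.01 and 16.8. Grik4 thus held both the strongest mutant-only and the strongest control-only region of the 9 genes.

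**Figure D3:**
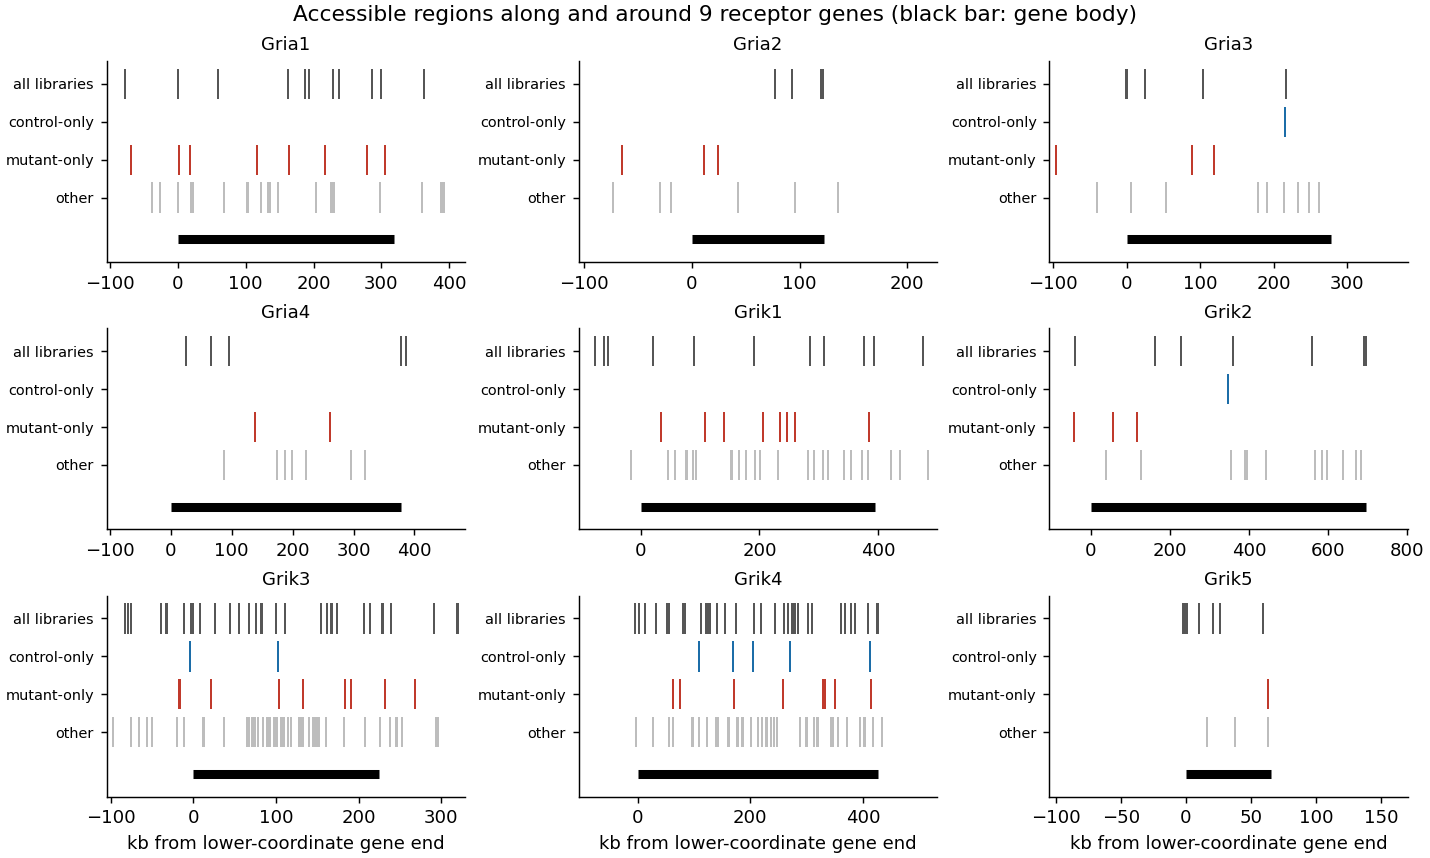
Position of the 357 receptor regions, 1 panel per gene, as kb from the gene's lower-coordinate end (horizontal axis); the black bar is the gene body. Ticks are regions in all libraries (dark grey), control-only (blue), mutant-only (red) and all other patterns (light grey). Of the 46 mutant-only regions 38 lie inside the bodies and the others beside them, where 283 of all 357 regions lie inside. Of the 9 control-only regions 5 lie in Grik4.

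Among the 120 receptor regions present in all libraries, 11 differed in rank between genotypes, 8 higher and 3 lower in mutants. The test was limma on normal scores of the ranks, over all 65789 shared regions with Benjamini-Hochberg adjustment and a threshold of 0.05. Over all shared regions 2.4% were called higher and 1.65% lower. Without adjustment 28.5% of all shared regions and 40 of the 120 had p under 0.05. Both mutants ranked above both controls at 50 receptor regions, against 29.1% of all shared regions, and below them at 22, against 32.8%. The median difference, mutants minus controls, was 4.82 percentile points over the receptor regions and -0.529 over all shared regions. For the marker lists it was 1.22 in motor neurons, -6.39 in neural progenitors, -12.8 in interneurons and -1.33 in astroglia. It was -4.84 for endothelium, 0.844 for sensory neurons and 3.29 for microglia. What these marker differences mean for the receptor regions was not tested. Among the 120 shared receptor regions 88 lay inside a gene and 12 within 1 kb of a gene end. Of the 11 called receptor regions 10 lay inside a gene and none within 1 kb of a gene end. Their limma adjusted p ran from 0.0448 to 0.0491, close to the threshold, and each of the 11 calls ended when any 1 library was left out (lowest limma adjusted p 0.117). All 11 also ended when a region's peaks were summed (lowest limma adjusted p 0.052) or with a replicate block (0.101). In the main test the lowest limma adjusted p over all 65789 shared regions was also 0.0448, so no region fell below this value.

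Gria1 held 3 of the 8 higher regions, within 6.22 kb in the middle of its body. The strongest difference was at chr11:57203802-57204660, 193 kb from the lower-coordinate end. Its summit held 16 and 15 tags in controls against 95 and 175 in mutants, and its rank among shared regions was 5.74 and 8.96 in controls against 65.0 and 73.5 in mutants (limma adjusted p = 0.0448). Tags are the number of extended reads over the summit, recovered from the lists. Divided by each library's background, the mutant mean was 7.44 times the control mean, where the median ratio over all shared regions was 1.14. A neighbour at chr11:57199204-57200006 held 22 tags in each control and 93 and 143 in the mutants, with ranks of 18.1 and 24.1 in controls against 61.9 and 63.3 in mutants (limma adjusted p = 0.0455). The third, chr11:57198438-57199005, held 17 tags in each control and 65 and 108 in the mutants (limma adjusted p = 0.0463). With ranking by fold enrichment the calls of the neighbour and the third ended. Their limma adjusted p was then 0.172 and 0.056, and that of the first was 0.0361. At all 3 the mutants lay above the controls without overlap, but these regions were picked by the test, and 29.1% of all shared regions did the same. Over all 12 shared regions of Gria1 the median difference was 19.0 percentile points.

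Grik4 held 4 higher regions and 1 lower among its 33 shared ones. The largest of these differences was at chr9:42569277-42570189, 375 kb past the start site, with 23 and 26 tags in controls against 132 and 180 in mutants. Its rank was 8.86 and 18.6 in controls against 77.8 and 75.1 in mutants (limma adjusted p = 0.0448). At chr9:42791618-42792394 there were 18 tags in each control and 54 and 78 in the mutants, with ranks of 4.92 and 7.62 in controls against 55.2 and 53.5 in mutants (limma adjusted p = 0.0448). A region at chr9:42630402-42630955 held 19 and 18 tags in controls against 49 and 73 in mutants (limma adjusted p = 0.0456). The last of the 4, chr9:42646633-42647469, was weak in every library, with 12 and 10 tags in controls against 19 and 24 in mutants. The lower region of Grik4, chr9:42827785-42828398, 116 kb past the start, held 33 and 30 tags in controls against 20 and 25 in mutants, and its rank fell from 39.6 and 43.0 to 13.7 and 14.2 (limma adjusted p = 0.0491). Calls at Grik4 thus went in both directions within 1 gene body, while its promoter did not pass the test. Within Grik4, the lower call and that of the weak region ended under further settings that kept its other calls. With a trend in the limma prior the limma adjusted p was 0.0736 for the lower region and 0.108 for the weak one. With ranking by fold enrichment it was 0.0537 and 0.064.

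The remaining calls were 1 each at Grik1, Grik3 and Grik5. The Grik1 region lay 61.4 kb beyond the gene's lower-coordinate end (chr16:87834026-87835042), where the assignment rests on distance alone. It held 30 and 32 tags in controls against 144 and 293 in mutants, with ranks of 34.1 and 43.7 in controls against 80.5 and 85.9 in mutants (limma adjusted p = 0.047). The Grik3 region (chr4:125702902-125703699) fell in mutants, with 39 and 29 tags in controls against 17 and 21 in mutants and ranks of 46.4 and 35.1 against 7.41 and 8.38 (limma adjusted p = 0.0477). In Grik5 a region inside the body (chr7:25035836-25036250) also fell, from 33 and 27 tags to 17 and 21, with ranks of 39.6 and 37.8 in controls against 7.41 and 8.38 in mutants (limma adjusted p = 0.0448). Divided by background, the mutant mean was 5.96 times the control mean at Grik1, 0.491 of it at Grik3 and 0.554 at Grik5. With ranking by fold enrichment the limma adjusted p was 0.0549 at Grik1, 0.0533 at Grik3 and 0.0387 at Grik5.

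**Figure D4:**
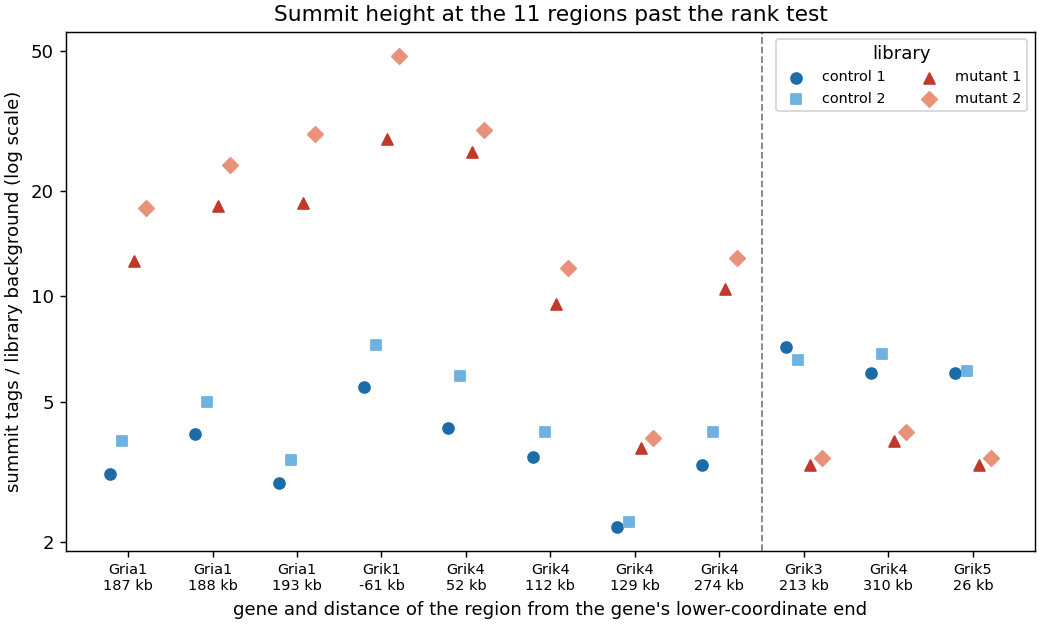
Summit tags divided by each library's background (vertical axis, log scale) at the 11 receptor regions past the rank test, labelled by gene and by distance from its lower-coordinate end. Left of the dashed line are the 8 regions higher in mutants (red) than in controls (blue), and right of it the 3 lower ones.

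No shared region of Gria2, Gria3, Gria4 or Grik2 was called. These genes have few shared regions, and over all shared regions 4.05% were called. The lowest limma adjusted p was 0.506 among the 4 shared regions of Gria2, 0.0835 among 5 of Gria3, 0.0745 among 6 of Gria4 and 0.11 among 7 of Grik2. At Gria3 the widest difference without overlap, in percentile points, was at chrX:41505104-41505819, with 25 and 15 tags in controls against 54 and 72 in mutants and ranks of 25.9 and 8.96 against 59.9 and 57.9. The median difference over the Gria3 regions was 8.23 percentile points, against 0.19 over all 1178 shared regions of the X chromosome. At Gria4 the widest was chr9:4513845-4514890, with ranks of 19.4 and 14.4 in controls against 47.7 and 38.1 in mutants. At Grik2 it lay in the other direction, at chr10:49322467-49322848 inside the body, with 62 and 48 tags in controls against 41 and 42 in mutants and ranks of 66.2 and 63.6 against 47.7 and 36. By normal score the widest at Grik2 was chr10:49053217-49053745, 40.2 kb outside the body. Its ranks were 3.73 and 8.96 in controls against 11.5 and 26.8 in mutants.

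The 5 regions next in line after the called ones had limma adjusted p from 0.0553 to 0.0691. The genotypes overlapped at none of them, but picking by low p favours this. Over all shared regions both mutants ranked above both controls at 29.1% and below them at 32.8%. Among the 5, both mutants were higher at 4 and lower at 1. The first was a Grik3 region 96.4 kb outside the gene (chr4:125810228-125810872), with 17 and 14 tags in controls against 43 and 89 in mutants. A region inside Gria1 (chr11:57248779-57250674, limma adjusted p = 0.0572) held 36 and 38 tags in controls against 125 and 285 in mutants. The third was the one beyond the end of Grik5 described above. The lower one, inside Grik3 (chr4:125651404-125652226, limma adjusted p = 0.0679), held 62 and 39 tags in controls against 21 and 34 in mutants. Its ranks were 60.7 and 51.0 against 6.39 and 18.1, a difference of -43.6 percentile points and the widest without overlap at Grik3. The last was a Grik4 region (chr9:42692993-42693477) with 16 and 10 tags in controls against 47 and 66 in mutants.

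**Figure D5:**
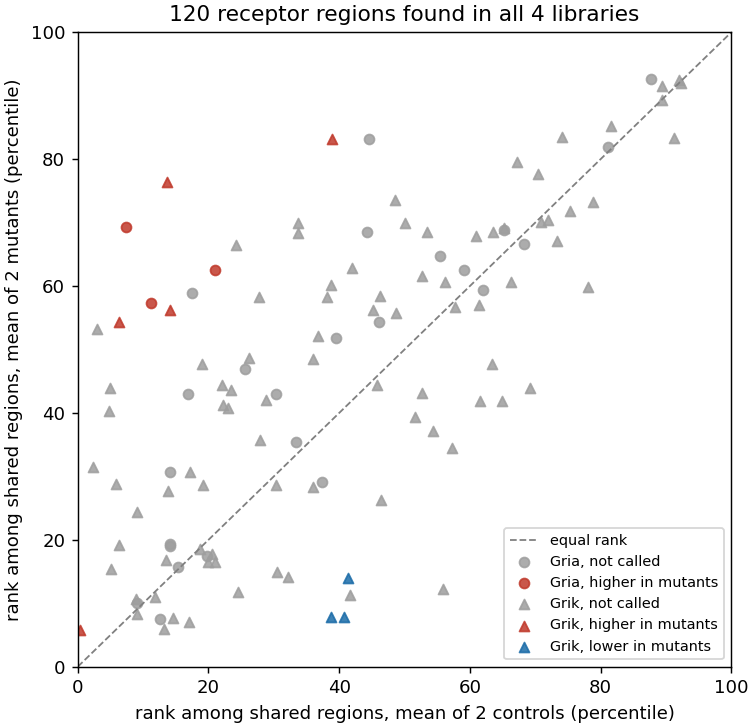
Mean rank in the 2 controls (horizontal axis, percentile among shared regions) against mean rank in the 2 mutants (vertical axis) for the 120 receptor regions found in all libraries; circles are AMPA and triangles kainate genes. Red points are the 8 regions called higher in mutants, blue the 3 called lower, and the dashed line marks equal rank.

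Genes that act with these receptors were read in the same way. A list of 23 auxiliary, anchoring and editing genes includes the transmembrane AMPA receptor regulatory proteins (Cacng genes), the Cnih and Shisa AMPA receptor partners, the kainate receptor partners Neto1 and Neto2, the anchoring proteins Grip1 and Grip2, and Adarb1, which edits Gria2 RNA. Together they had 479 regions, of which 57 (11.9%) were mutant-only and 15 (3.13%) control-only, against 9.16% and 3.5% of all assigned regions. Of 143 shared regions 6 were higher and 1 lower in mutants, so 4.9% were called, against 4.05% of all shared regions. The 3 genes with most regions were Grip1 with 123, Shisa9 with 40 and Gsg1l with 38; Grip1 had 16 mutant-only and 4 control-only regions and held the lower one. The higher ones, named after their values were seen, were 2 at Shisa6 and 1 each at Cnih3, Gsg1l, Neto1 and Shisa9. Adarb1 had 16 regions, with none mutant-only or control-only, which is too few regions to show a lack of them.

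The other glutamate receptor genes and the inhibitory receptors were also counted. For 17 genes of NMDA, delta and metabotropic receptors 85 of 579 regions (14.7%) were mutant-only and 11 (1.9%) control-only, and 7 of 133 shared regions (5.26%) were called, 5 of them higher in mutants. For 23 genes of GABA-A and glycine receptors 39 of 256 regions (15.2%) were mutant-only and 3 (1.17%) control-only, and 4 of 76 shared regions (5.26%) were called, 3 of them higher. At the AMPA and kainate genes 11 of 120 (9.17%) were called, against 4.05% of all shared regions. Their median rank difference, 4.82 percentile points, was not the largest. It was 5.63 for GABA-A and glycine receptors, 2.76 for NMDA, delta and metabotropic receptors and 1.57 for the auxiliary list. Both mutants ranked above both controls at 35 of 76 inhibitory, 53 of 133 other glutamate and 50 of 120 AMPA and kainate regions. Whether the lists differ from each other or from all regions was not tested.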

How the data were processed

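ATAC-seq peak lists of 4 libraries (2 control, 2 Hoxa5-deficient, grouped by their titles) were used. Per the submitters' processing notes the tools were FastQC 0.11.9, Bowtie2 2.3.4.3, SAMtools 1.9 and MACS2 2.2.4, with the build mm10; their parameters, and any Tn5 shift, are not given in the sources used here. Each library has its own deposited list, called separately by the authors. Deposited columns hold the interval and summit as other base positions, a score capped at 1000, a fold enrichment ratio, and, on a −log10 scale, a p-value and a q-value; these are the authors' values for single peaks and were used to rank or filter peaks. The lowest deposited −log10 p was about 2 in each list.

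A whole tag pileup that gives each deposited fold and p within 0.001 on the −log10 scale was found for at least 99.9995% of summits per library; the lowest background, at an assumed tag length of 150 bp, gave the depth. A region's value in a library is its strongest peak. Regions in all libraries were re-ranked over the same regions, turned into normal scores and tested with limma 3.58.1 (R 4.3.3), without a replicate block. Gene bodies are those of 21887 protein-coding genes (RefSeq, GRCm38.p6); exons were not used here. Alternatives were a −log10 q of 5 or more, equal peak numbers, a 50 bp overlap, assignment within 25 kb or to bodies alone, each library left out, other region values and other limma settings; tags over background and the background of long genes were chosen after seeing the data. Named regions were drawn from those within 1 kb of a gene end and from shared regions past the test. Also drawn on were the strongest 2 genotype-specific ones per gene and direction. Each gene's strongest shared region and its widest difference without overlap, by normal score and by percentile points, were further candidates. Not every region of these kinds is named. The 5 regions next to the threshold were added after their values were seen. Further lists name the 3 genes with most regions. Members, lists and motifs were chosen with earlier results of these data known. Tags are not independent molecules, and with 2 libraries per genotype p-values measure the spread between these libraries.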

Additional observations from a re-analysis of the deposited data

How the results depend on the processing

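Direction held for each of the 11 called regions under each alternative that gave it a value, but for several alternatives this was largely fixed in advance. The genotypes did not overlap at any of the 11, so leaving out 1 library could hardly reverse a difference. The replicate block, the prior with a trend and the other assignment rules leave the main differences unchanged. With a −log10 q of 5 or more the mean number of receptor regions was 99 in controls and 154.5 in mutants, 71 were in all libraries, and 4 were called higher and 0 lower (limma), or 5.63% against 4.46% of all regions tested; only 2 of the 11 regions, both higher in mutants, had a value there. Leaving out 1 library gave from 13 to 33 control-only, from 62 to 109 mutant-only and from 124 to 138 shared receptor regions, while over all assigned regions the control-only share ran from 5.5% to 15.1% and the mutant-only share from 13.4% to 23.7%. It left 0 limma calls, higher or lower, among receptor regions and among all regions, with 31 to 45 receptor regions and 12914 to 17417 of all regions at an unadjusted p under 0.05 and adjusted p from 0.117 to 0.209 for the 11; the lone library of a genotype was assumed to vary like the others. Summing a region's peaks gave 0 limma calls in each set, with 37 receptor regions and 18017 of all 65789 at an unadjusted p under 0.05 and adjusted p from 0.052 to 0.176 for the 11. The same numbers in the labels do not show that libraries are paired, and deviations of same-numbered libraries had a correlation of -0.00125 over shared regions. With the replicate block, which leaves 1 residual degree of freedom, limma called 0 in each set, with 42 receptor regions and 17440 of all at an unadjusted p under 0.05. A prior with a trend gave 23 receptor regions higher and 7 lower, and 7309 and 6268 over all regions. Tags over background gave 45 higher and 4 lower, and 12343 higher and 4991 lower over all regions, a scale on which the median ratio over all shared regions was 1.14. Ranking by fold kept 5 of the 11 calls. The cause of these differences was not tested, apart from the fewer samples or degrees of freedom named. With equal peak numbers the receptor genes had 34 mutant-only and 11 control-only regions (11.2% and 3.62%), against 6.76% and 5.73% of all assigned regions. Other alternatives kept the counts within 1.5 times. Depth limits the weakest regions, and a region missing from a list may lie just under the authors' threshold.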
